A study of Homo sapiens with 4 samples.

Results

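The EGF receptor ligands AREG, EREG, HBEGF, TGFA, BTC, EGF and EPGN were described in the human breast cancer cell line MDA-MB-231, of mesenchymal type, after treatment with MGH-CP1, an inhibitor of TEAD palmitoylation. The 7 genes were taken by symbol from 48162 genes listed in the table. They were selected on the ligand family and on 1 measured value: AREG had been noted as higher after MGH-CP1 although it is listed among genes lowered by YAP/TAZ knockdown. The contrast of MGH-CP1 with vehicle control had therefore been used to choose them, and the ligands' own changes are given below as a description, with no test. The series holds 4 poly(A) RNA-seq libraries, 2 of cells given MGH-CP1 and 2 of cells given vehicle control, all harvested at 24 h. The labels give the dose of MGH-CP1 as 10 µM and the study's methods give the same figure in mM. No source says that the 2 libraries of a group came from separate cultures, so p-values measure only the spread between these libraries, which may be technical.

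Ligands of this family are made as membrane-bound precursors and are released by metalloproteases, of which ADAM17 and ADAM10 are the best known. Released ligand binds the EGF receptor on the same or a neighbouring cell, the receptor pairs and phosphorylates itself, and signals pass through adaptors to RAS, the kinase ERK and other routes. AREG, TGFA, EGF and EPGN act through the EGF receptor, while HBEGF, EREG and BTC also bind ERBB4. In breast tissue, AREG is the ligand that oestrogen induces during growth of the ducts. AREG is also a known YAP target gene in mammary cells. TEAD proteins carry YAP and TAZ to DNA, and palmitoylation of TEAD is the step that MGH-CP1 blocks.

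The 250 bases before the first start site are shown for the 4 most abundant ligands. Whether any motif in them goes with a gene's change after MGH-CP1 was not tested. The sequences are from RefSeq on GRCh38.p14, 5′ to 3′ on the strand of the gene: AREG at chr4:74444886-74445135 on the plus strand, EREG at chr4:74364895-74365144 on the plus strand, HBEGF at chr5:140346604-140346853 on the minus strand and TGFA at chr2:70553827-70554076 on the minus strand. Capitals mark matches, on either strand, to 5 motifs: the cyclic AMP response element TGACGTCA, the TEAD core GGAATG, the AP-1 motif TGANTCA, the TATA box TATAAA and the GC box GGGCGG.
AREG: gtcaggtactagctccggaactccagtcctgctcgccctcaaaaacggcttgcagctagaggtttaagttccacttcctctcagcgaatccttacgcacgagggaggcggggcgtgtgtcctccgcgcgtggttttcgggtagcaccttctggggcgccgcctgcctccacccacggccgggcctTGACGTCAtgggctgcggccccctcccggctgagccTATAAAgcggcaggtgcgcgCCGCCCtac
EREG: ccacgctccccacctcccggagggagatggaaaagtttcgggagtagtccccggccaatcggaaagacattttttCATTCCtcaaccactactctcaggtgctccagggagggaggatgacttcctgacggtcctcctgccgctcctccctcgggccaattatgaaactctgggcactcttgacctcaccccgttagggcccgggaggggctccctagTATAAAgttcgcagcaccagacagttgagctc
HBEGF: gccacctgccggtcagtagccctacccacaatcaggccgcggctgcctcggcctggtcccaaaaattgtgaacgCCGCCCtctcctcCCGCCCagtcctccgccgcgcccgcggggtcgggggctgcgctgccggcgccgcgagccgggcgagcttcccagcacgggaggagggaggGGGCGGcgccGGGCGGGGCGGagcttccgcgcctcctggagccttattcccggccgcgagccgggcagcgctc
TGFA: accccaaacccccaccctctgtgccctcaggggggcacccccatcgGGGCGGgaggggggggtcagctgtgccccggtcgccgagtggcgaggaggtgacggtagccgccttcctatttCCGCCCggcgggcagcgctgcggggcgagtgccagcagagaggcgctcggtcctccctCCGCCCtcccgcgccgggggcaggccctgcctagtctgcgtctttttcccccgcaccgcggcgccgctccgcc

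The AREG window held TGACGTCA with its first base at position −65 from the start site, TATAAA at −29 and a GC box at −9. TGACGTCA was present in 1.65% of 35116 RefSeq promoters of the same length, and AREG was the only ligand with it. The EREG window held CATTCC, the other strand of the TEAD core, at −175 and TATAAA at −32. The TEAD core was present in 11.9% of all promoters and TATAAA in 10.7%. The HBEGF window held 5 GC boxes, the last 2 of which overlap by a base, and the first TGFA window held 3. The GC box was present in 42.6% of all promoters. A second TGFA start site and the BTC promoter held none of the 5 motifs, and the EPGN window held TATAAA at −29. The EGF window held CATTCC at −12 and the AP-1 match TGAGTCA at −17, which overlap each other, and TGANTCA was present in 6.57% of all promoters. These are matches of letters, and no binding was measured here.

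AREG had the largest change of the 7 ligands, TGFA and EREG were higher by smaller amounts, and HBEGF was lower. Levels are given as FPKM, fragments on a gene scaled to its length and to the library's total of fragments on genes, which allows genes to be compared per length. Of the 7 ligands, 5 had a mean of at least 1 FPKM over the 4 libraries and entered the fit across 12080 genes, while EGF and EPGN did not. The fold changes and SE of the ligands come from that fit. It shares variance across genes, so each SE is drawn partly from the spread of other genes. Without shared variance the SE was 0.15 for AREG, 0.06 for TGFA, 0.02 for EREG, 0.07 for HBEGF and 0.14 for BTC.

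**Figure D1:**
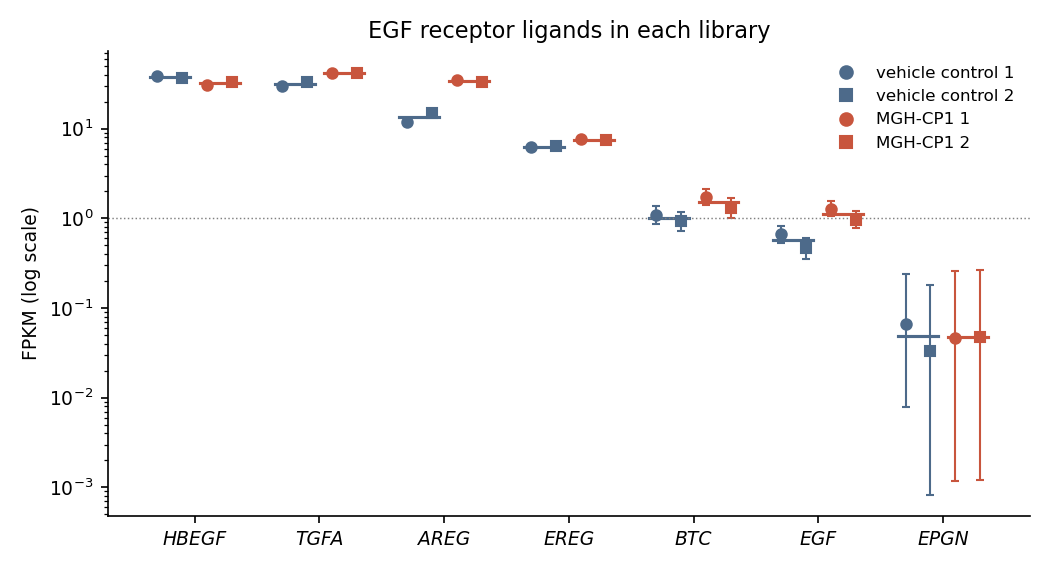
FPKM of the 7 ligands (vertical axis, log scale) in each of the 4 libraries. Bars through points are exact 95% Poisson intervals of counting error, short horizontal lines are group means and the dotted line is 1 FPKM. AREG lies at 12.0 and 15.0 in the vehicle control libraries and at 34.7 and 33.2 in the MGH-CP1 libraries, while HBEGF is lower after MGH-CP1 and EPGN lies near 0.05 in both groups.

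AREG (amphiregulin, ENSG00000109321) lies on the plus strand of chr4 at 75310851 to 75320726 in hg19. Its level was 12.0 and 15.0 FPKM in the vehicle control libraries, from 379 and 473 fragments, and 34.7 and 33.2 FPKM in the MGH-CP1 libraries, from 774 and 723 fragments. The 2 groups did not overlap, and the MGH-CP1 libraries were the higher. The group mean went from 13.5 ± 2.08 FPKM to 33.9 ± 1.07 FPKM (SD, n = 2), a ratio of 2.52 and a difference of 1.28 ± 0.09 (SE) on the log2(FPKM + 1) scale. A larger log2 fold change was found in 76 tested genes, 0.629% of the total. The vehicle control libraries differed by 1.25 times in AREG, and their 95% Poisson intervals of 10.8 to 13.3 and 13.6 to 16.4 FPKM did not overlap. This gap of 0.29 on the log2 scale was larger than that of 95.1% of tested genes, whose median was 0.08. Intervals here cover counting error only.

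TGFA (transforming growth factor alpha, ENSG00000163235) lies on the minus strand of chr2 at 70674412 to 70781325 in hg19. It was at 30.2 and 32.9 FPKM in vehicle control and at 41.6 and 41.3 FPKM after MGH-CP1. The MGH-CP1 libraries were both above the vehicle control libraries and differed little from each other. The mean went from 31.6 ± 1.90 to 41.4 ± 0.149 FPKM (SD, n = 2), a ratio of 1.31 and a difference of 0.38 ± 0.06 (SE) on the log2 scale. EREG (epiregulin, ENSG00000124882, plus strand of chr4, 75230860 to 75254468) was at 6.17 and 6.37 FPKM in vehicle control and at 7.60 and 7.48 FPKM after MGH-CP1. The groups did not overlap, and the means of 6.27 ± 0.141 and 7.54 ± 0.0895 FPKM (SD, n = 2) had a ratio of 1.20, or 0.23 ± 0.07 (SE) on the log2 scale.

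HBEGF (heparin-binding EGF-like growth factor, ENSG00000113070) lies on the minus strand of chr5 at 139712428 to 139726216 in hg19. It was at 39.0 and 37.0 FPKM in vehicle control and at 30.8 and 33.6 FPKM after MGH-CP1. The groups did not overlap, and the MGH-CP1 libraries were the lower. The mean went from 38.0 ± 1.46 to 32.2 ± 1.95 FPKM (SD, n = 2), a ratio of 0.848 and a difference of −0.23 ± 0.06 (SE) on the log2 scale. Without any 1 of the 4 libraries the difference of HBEGF was −0.29 to −0.17, and that of EREG was 0.21 to 0.25.

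The other 3 ligands were rare. BTC (betacellulin, ENSG00000174808, minus strand of chr4, 75669969 to 75719896) was at 1.10 and 0.933 FPKM in vehicle control and at 1.74 and 1.31 FPKM after MGH-CP1, from 65 to 88 fragments a library. The groups did not overlap, with means of 1.02 ± 0.120 and 1.52 ± 0.299 FPKM (SD, n = 2), and a difference of 0.32 ± 0.13 (SE) on the log2 scale. EGF (ENSG00000138798, plus strand of chr4, 110834040 to 110933422) was at 0.668 and 0.466 FPKM in vehicle control and at 1.29 and 0.968 FPKM after MGH-CP1. Pooled over libraries, its 141 and 196 fragments gave a ratio of 1.99 per fragment sequenced, with a 95% interval of 1.60 to 2.49 for counting error only. EPGN (epigen, ENSG00000182585, plus strand of chr4, 75174190 to 75181024) had 2, 1, 1 and 1 fragments in the 4 libraries, a difference that was not detectable at this depth (ratio 0.955, 95% interval 0.0798 to 8.34).

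Over all tested genes, the groups did not overlap with MGH-CP1 the higher in 39.8% and with MGH-CP1 the lower in 37.4%. Among the ligands, AREG, TGFA, EREG, BTC and EGF were of the higher kind, HBEGF was of the lower kind and EPGN overlapped, and nothing is read from that count. The table also lists AREGB (ENSG00000205595, plus strand of chr4, 75480629 to 75490486), a near-identical copy of AREG in hg19 that RefSeq on GRCh38.p14 treats as a synonym of AREG. AREGB held 2, 2, 1 and 8 fragments, and the difference of AREG and AREGB summed was 1.28 on the log2 scale. How fragments shared by both copies were assigned is not given in the sources used here.

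The order of the ligands differed between groups. In vehicle control the order of mean FPKM was HBEGF, TGFA, AREG, EREG, BTC, EGF and EPGN, and no neighbours in that order overlapped between libraries. After MGH-CP1 the order was TGFA, AREG, HBEGF, EREG, BTC, EGF and EPGN. AREG and HBEGF were then separated by a ratio of 1.05 and their libraries overlapped, so their order is not beyond the spread, while the other neighbours did not overlap.

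The summed level of the 7 ligands was 89.3 and 92.7 FPKM in vehicle control and 118 FPKM in both MGH-CP1 libraries, a ratio of means of 1.30. AREG made up 13.4% and 16.1% of that sum in vehicle control and 29.5% and 28.1% after MGH-CP1. HBEGF made up 43.7% and 39.9% in vehicle control and 26.2% and 28.5% after MGH-CP1. TGFA held about the same share, with means of 34.7% ± 1.19 and 35.2% ± 0.162 (SD, n = 2). EREG went from a mean of 6.90% to 6.40%, so its level was higher while its share was lower. BTC, EGF and EPGN were the smallest members, with mean shares after MGH-CP1 of 1.29%, 0.957% and 0.0399%.

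**Figure D2:**
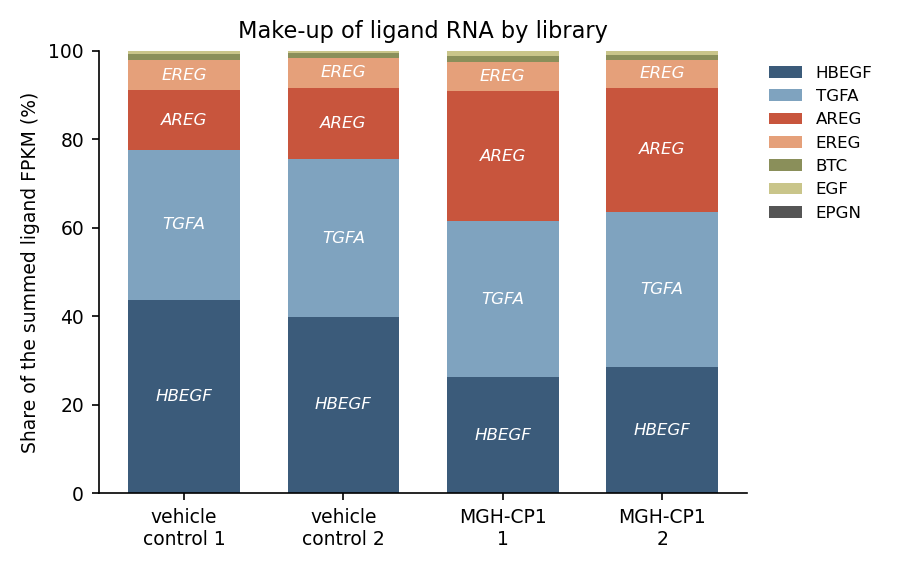
Share of the summed FPKM of the 7 ligands (vertical axis, %) held by each ligand, 1 bar per library. AREG goes from 13.4% and 16.1% in vehicle control to 29.5% and 28.1% after MGH-CP1, HBEGF goes to 26.2% and 28.5%, and TGFA stays between 33.9% and 35.6%.

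Receptors and the genes around the ligands were read from 7 lists of 70 genes, of which 64 were tested. The lists were chosen with earlier results of these data known, so their shares are given as a description. At an adjusted p threshold of 0.05, limma called 27.1% of all 12080 tested genes higher and 23.8% lower, 50.8% in either direction. In the lists, 25 genes were called higher and 11 lower, 39.1% and 17.2% of those tested, with a median log2 fold change of 0.09 against 0.01 over all tested genes. Of the receptors, EGFR, to which all 7 ligands bind, fell from 49.7 and 48.5 FPKM to 34.9 and 36.1 FPKM, a log2 fold change of −0.46 ± 0.05 (SE) with a limma adjusted p of 0.000219. Its ligands AREG, TGFA and EREG were thus higher in the same libraries in which the receptor was lower. HBEGF, the most abundant ligand in vehicle control, was lower in those libraries, as the receptor was. ERBB2, the partner receptor without a ligand of its own, was at 24.7 and 24.9 FPKM and then at 26.3 and 28.4 FPKM, which did not pass the test (limma adjusted p = 0.0852). ERBB3, which binds neuregulins, rose from 1.10 and 1.08 FPKM to 1.92 and 1.66 FPKM (log2 fold change 0.42 ± 0.12, limma adjusted p = 0.0191). The call of ERBB3 was lost without vehicle control replicate 1, without vehicle control replicate 2 or without MGH-CP1 replicate 1, with limma adjusted p of 0.0709, 0.0744 and 0.084. ERBB4, the second receptor of HBEGF, EREG and BTC, held at most 3 fragments a library.

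Of the neuregulins, the ligands of ERBB3 and ERBB4, NRG1 fell from 19.1 and 16.5 FPKM to 12.4 FPKM in both MGH-CP1 libraries (log2 fold change −0.48 ± 0.08, limma adjusted p = 0.00124). NRG2 was below the filter, at 0.380 and 0.316 FPKM in vehicle control and at 0.776 and 0.871 FPKM after MGH-CP1. NRG3 was at 0 in all libraries and NRG4 near 0.11 FPKM. NRG1 was thus lower in the libraries in which AREG was higher.

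The list of ligand release and export had 13 tested members, of which 9 rose, the inhibitor TIMP3 among them, and 2 fell. These shares were 69.2% and 15.4%, against 27.1% and 23.8% of all tested genes. The list was chosen with earlier results of these data known, so its shares are a description. The median log2 fold change of its members was 0.29, against 0.01 over all tested genes. ADAM8, a membrane metalloprotease, rose from 47.5 and 53.0 FPKM to 124 and 118 FPKM (1.25 ± 0.06, limma adjusted p = 1.5e-05). RHBDF1, which brings ADAM17 to the cell surface, rose from 11.6 and 10.6 FPKM to 27.1 and 23.3 FPKM (1.11 ± 0.08, limma adjusted p = 4.33e-05). TIMP3, an inhibitor of ADAM17 and so of opposite action to the others, rose from 157 and 153 FPKM to 238 and 234 FPKM (0.60 ± 0.04), and ADAM19, another metalloprotease, rose by 0.41 on the log2 scale. Outside the rule for named genes and chosen after their values were seen, ADAM17 rose from 13.0 and 12.5 FPKM to 15.0 and 14.4 FPKM (0.19, limma adjusted p = 0.0331), and ADAM10 was at 0.07 and not called. Chosen in the same way, FRMD8 rose by 0.21 and RHBDL2 by 0.35 on the log2 scale. The 2 members that fell, also outside the rule, were ADAM9 and BACE1. ADAM9 went from 130 and 122 FPKM to 109 and 112 FPKM (−0.19), a call lost in limma without the trend. BACE1 fell by 0.28 on the log2 scale, a call lost without vehicle control replicate 1. It overlaps CEP164, whose fragments came to 74.4% of its own. The FRMD8 call was lost with median-ratio scaling and the RHBDL2 call with quantile normalization. Without any 1 of the 4 libraries the difference was 0.13 to 0.30 for FRMD8 and 0.25 to 0.45 for RHBDL2. Both calls were lost without vehicle control replicate 1 and without MGH-CP1 replicate 1, and that of FRMD8 also without MGH-CP1 replicate 2. The ADAM17 call was lost without any 1 of the 4 libraries (limma adjusted p 0.057 to 0.153), and the gene overlaps IAH1, whose fragments came to 61.9% of its own.

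Of 6 surface proteins that hold ligands or their precursors, 2 rose and 1 fell (33.3% and 16.7%), shares near the 27.1% and 23.8% of all tested genes. CD9, a tetraspanin that binds the HBEGF precursor, rose from 88.4 and 88.5 FPKM to 168 and 150 FPKM (0.83 ± 0.06, limma adjusted p = 3.8e-05) while HBEGF was lower. GPC1, a heparan sulfate proteoglycan, rose from 34.8 and 38.0 FPKM to 50.1 and 51.8 FPKM (0.48), and SDC1, another, fell from 39.3 and 43.0 FPKM to 30.0 and 32.6 FPKM (−0.38).

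Of 19 tested adaptors and effectors, which carry the signal of a ligand-bound receptor inward, 4 rose, 2 fell and 13 were not called. The shares that rose and fell, 21.1% and 10.5%, were both below the 27.1% and 23.8% of all tested genes, and the median log2 fold change was 0.04. MAPK3, the kinase ERK1, rose from 18.2 and 19.2 FPKM to 24.2 and 23.9 FPKM (0.35). SHC1, an adaptor, rose by 0.23 and NRAS fell by 0.22 on the log2 scale. The call of SHC1 was lost without MGH-CP1 replicate 2 (limma adjusted p = 0.0526), and that of NRAS was lost with limma adjusted p of 0.0511 without vehicle control replicate 1 and 0.0537 without MGH-CP1 replicate 1. SHC1 overlaps PYGO2, whose fragments came to 58.6% of its own.

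Receptor brakes had 12 tested members, of which 2 rose and 3 fell (16.7% and 25.0%), against 27.1% and 23.8% of all tested genes, with a median log2 fold change of 0.04. ERRFI1, which binds and inhibits the EGF receptor, rose from 177 and 176 FPKM to 247 and 243 FPKM (0.47 ± 0.04, limma adjusted p = 0.000109), and SOCS3 rose from 12.6 and 14.5 FPKM to 18.1 and 18.5 FPKM (0.42). CBL, the ubiquitin ligase that marks the receptor for breakdown, fell from 15.8 and 16.5 FPKM to 12.4 and 13.0 FPKM (−0.32). PTPRK, a receptor phosphatase, fell by 0.18 on the log2 scale, a call lost without any 1 of the libraries (limma adjusted p 0.0647 to 0.172).

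Genes induced by ERK, the kinase downstream of the ligands, had 10 tested members, of which 7 rose, 1 fell and 2 were not called. The shares that rose and fell were 70.0% and 10.0%, against 27.1% and 23.8% of all tested genes. The median log2 fold change was 0.34, against 0.01 over all tested genes. The list was chosen with earlier results of these data known, so these values are a description. ETV4, outside the rule for named genes, was among those that rose (0.23). Its call was lost in limma without the trend and with no filter on low values. It was also lost without vehicle control replicate 1 and without MGH-CP1 replicate 2. ETV4 overlaps DHX8, whose fragments came to 176% of its own. DUSP6, a phosphatase that removes phosphate from ERK, rose from 50.6 and 52.0 FPKM to 93.2 and 85.1 FPKM (0.78 ± 0.06, limma adjusted p = 3.98e-05). SPRY4, a feedback inhibitor, rose from 22.2 and 22.7 FPKM to 36.6 and 35.9 FPKM (0.67), and DUSP4, a nuclear ERK phosphatase, from 91.0 and 91.1 FPKM to 140 FPKM in both MGH-CP1 libraries (0.62). EPHA4, a receptor kinase, rose from 2.14 and 1.98 FPKM to 3.64 and 2.94 FPKM (0.48), a call lost without MGH-CP1 replicate 1 (limma adjusted p = 0.0525). CCND1, chosen after its value was seen, was the member that fell, by 0.19 on the log2 scale, a call lost without MGH-CP1 replicate 1 (limma adjusted p = 0.114). ERK activity was not measured here.

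**Figure D3:**
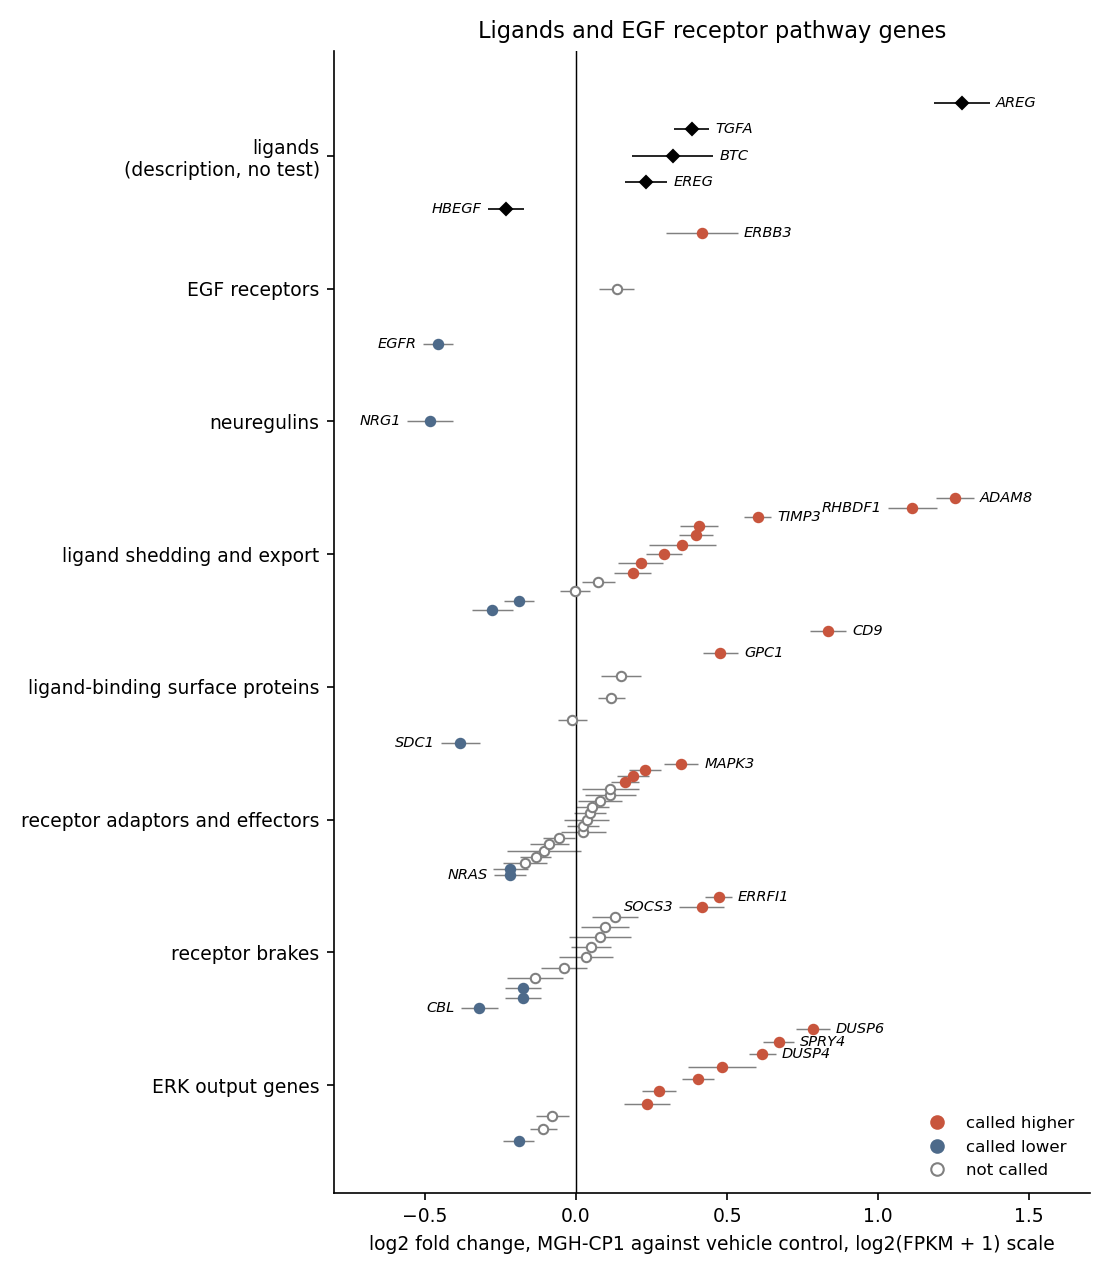
Log2 fold change of MGH-CP1 against vehicle control on the log2(FPKM + 1) scale (horizontal axis) for the 5 ligands in the fit, drawn as diamonds, and for the tested genes of 7 lists, drawn as circles coloured by their limma call. Bars are SE. AREG at 1.28 lies beside ADAM8 at 1.25 and RHBDF1 at 1.11, EGFR lies at −0.46 and NRG1 at −0.48, and the adaptors lie within −0.22 and 0.35.

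AREG shares a region of chr4 with EREG, EPGN and BTC. The table lists 17 genes within 500 kb of AREG, AREG among them, of which 5 were tested and 5 were at 0 in all libraries. EREG lies 56.4 kb from AREG, and its difference of 0.23 is set against 1.28 for AREG. CXCL2, a chemokine gene 346 kb from AREG, rose from 3.26 and 4.31 FPKM to 6.43 and 5.98 FPKM (0.60 ± 0.11, limma adjusted p = 0.00313). MTHFD2L, a gene 142 kb from AREG, was at −0.02 and was not called (limma adjusted p = 0.887). BTC, 349 kb from AREG, was at 0.32. AREG had the highest mean FPKM of the region in both groups.

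**Figure D4:**
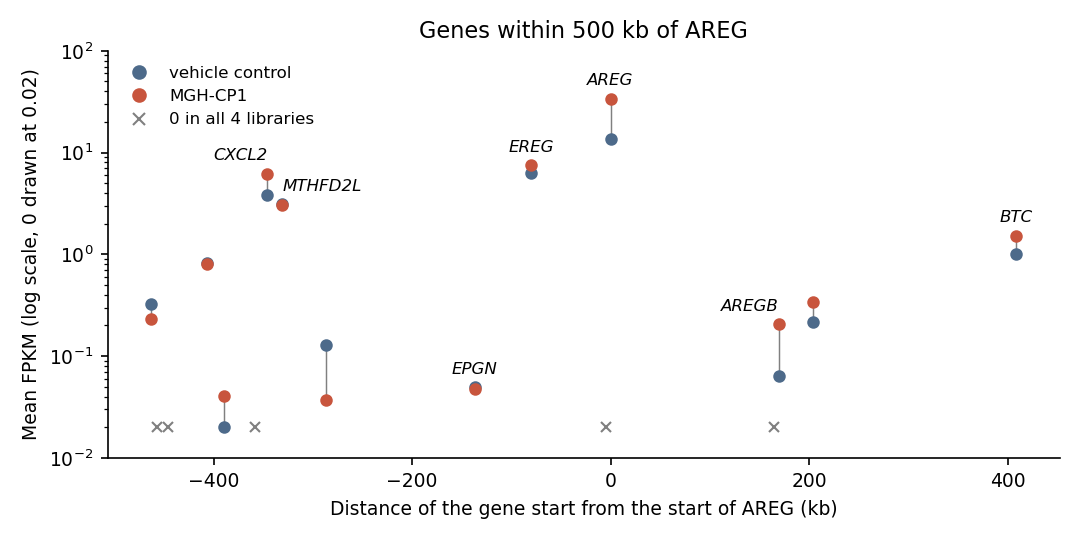
Mean FPKM (vertical axis, log scale, with 0 drawn at 0.02) of the genes within 500 kb of AREG in vehicle control and MGH-CP1, against the distance of each gene's start from the start of AREG (horizontal axis, kb). Unlabelled points are below 1 FPKM and crosses are genes at 0 in all 4 libraries. AREG goes from 13.5 to 33.9 FPKM, while EREG goes from 6.27 to 7.54 and MTHFD2L stays near 3.1.

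Genes whose profile over the 4 libraries was among the closest to each ligand were found by Euclidean distance of centred log2(FPKM + 1) values. For AREG they were SELPLG at 0.0592, AC018766.5 at 0.0851 and LTBP3 at 0.0868. For TGFA they were RP11-622K12.1 at 0.00681 and PFKL at 0.00842. For EREG they were TAGLN2 at 0.00646, TKT at 0.0122 and WAC-AS1 at 0.0126, and for HBEGF they were KIAA0368 at 0.0107 and OSBPL8 at 0.0125. For BTC they were RNF103 at 0.0309, RP11-47I22.3 at 0.0366 and C7orf13 at 0.0383. The closest gene of AREG was farther away than that of the other 4 ligands. Only 76 tested genes had a larger log2 fold change than AREG, so few genes could lie near it and nothing is read from this distance. AC018766.5 overlaps PTOV1, WAC-AS1 overlaps WAC and RNF103 overlaps CHMP3. The fragments of these overlapping genes came to 1561%, 643% and 590% of those of the listed gene.

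The libraries differed in more than treatment. Fragments on genes came to 25455533 and 25508824 in vehicle control and to 17997221 and 17577930 after MGH-CP1, and the mitochondrial share was 0.447% and 0.419% against 1.57% and 1.53%. The part of depth and of mitochondrial share in the ligand values was not tested. The YAP/TEAD target genes CYR61, CTGF and ANKRD1 fell by 0.75, 0.66 and 0.66 on the log2 scale, so AREG was higher in the same libraries in which these targets were lower. The mesenchymal list summed to 1182 FPKM in both vehicle control libraries and to 942 and 985 FPKM after MGH-CP1. In it, 6 of 7 markers were at 1 FPKM or more in a library, and SPARC was near 0.1 FPKM. AXL fell from a mean of 283 to 168 FPKM and CAV1 from 387 to 275 FPKM. LOX rose from 20.1 to 25.7 FPKM, and VIM, CD44 and ZEB1 were not called. The luminal list summed to 753 and 770 FPKM and then to 917 and 913 FPKM, with ESR1, PGR and FOXA1 below 0.1 FPKM in all. In the luminal list 6 of 10 markers were at 1 FPKM or more in a library, and markers below the filter were not tested. KRT19 was its only marker called higher, from a mean of 267 to 480 FPKM. KRT8, from 336 to 297 FPKM, and KRT18, from 115 to 90.0 FPKM, were called lower. The leukocyte list summed to 2.48 and 1.79 FPKM and then to 4.09 and 3.32 FPKM, nearly all of it CD14, with PTPRC, CD3E and CD68 below 0.1 FPKM. The endothelial list, with 3 of 4 markers listed, summed to 1.55 and 1.31 FPKM and then to 1.18 and 0.940 FPKM, with CDH5 and VWF below 0.1 FPKM. In bulk RNA, fewer cells of a type and less RNA per cell cannot be told apart.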

How the data were processed

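RNA-seq of MDA-MB-231 cells covered 4 libraries, 2 per group, made by poly-T selection and random hexamer priming and sequenced as 150 bp paired ends. The authors deposited FPKM for 48162 genes with symbol, hg19 coordinates and gene length. The submitters' processing notes name CASAVA 1.8, STAR and hg19. The counter, the annotation release and the use of strand are not given in the sources used here, so fragments of overlapping genes cannot be told apart. Multiplied by length, FPKM gave whole fragments for 100% of values within 0.01, and totals of 17577930 to 25508824 fragments.

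limma 3.58.1 in R 4.3.3 was fitted to log2(FPKM + 1) of 12080 genes with a mean of at least 1 FPKM over the 4 libraries, with a variance trend (prior df 5.97), as a two-sided test, and p-values were adjusted by the Benjamini-Hochberg method across the tested genes, with a threshold of 0.05. A fold change on this scale understates the change of low genes. An exact permutation test of 2 against 2 libraries cannot go below p = 0.333. No p-value or call is given for the ligands. The study's methods name a per-gene Student's test, kept as an alternative without shared variance. Intervals are exact 95% Poisson intervals. Scripts were tested on simulated data.

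The ligands and the gene lists were chosen with earlier results of these data known. Named genes were all ligands, AREGB, the receptors, up to 4 called genes per list with the largest change, tested genes within 500 kb of AREG, the 3 closest profiles per ligand, and CYR61, CTGF and ANKRD1. Of the genes this rule and the marker lists name, 4 are not reported here. Promoters were matched by symbol for 7 of 7 ligands. Alternatives covered pseudocount, filter, scaling, variance model, voom on recovered fragments, the replicate block and leaving out each library.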

Additional observations from a re-analysis of the deposited data

How the results depend on the processing

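AREG, TGFA, EREG and HBEGF kept their direction under every alternative run. Against 3273 genes called higher and 2869 lower, no filter on low values gave 1844 lower, and a per-gene test without shared variance gave 9 higher and 4 lower (4947 at an unadjusted p under 0.05). Of the 25 pathway genes called higher and 11 lower, no shared variance left 1 and 0, no filter gave 6 lower and limma without the trend gave 7 lower. The EREG difference was 0.26 with a pseudocount of 0.1, 0.18 with quantile normalization and 0.27 with voom on recovered fragments, and that of BTC was 0.53, 0.15 and 0.58. That of EGF was 0.44, and 0.88 with a pseudocount of 0.1. Smaller fold changes of low genes under a pseudocount of 1 follow from its construction, and the cause of the other shifts was not tested.

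Leaving out 1 library gave 2512 to 2991 genes higher, 2129 to 2549 lower, 19 to 22 pathway genes higher and 5 to 9 lower. Pathway genes lower were 5 without vehicle control replicate 1 and 6 without MGH-CP1 replicate 1. The difference ranged over 1.13 to 1.42 for AREG, 0.32 to 0.44 for TGFA, 0.21 to 0.25 for EREG, −0.29 to −0.17 for HBEGF and 0.20 to 0.44 for BTC. A lone library in a group is assumed to vary like the other group. The labels give same-numbered libraries of the 2 groups a shared number and do not say whether they were paired. The correlation of their deviations was 0.0777 over 12080 genes. With a replicate block 3466 genes were called higher and 3052 lower.

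Depth limits EPGN and AREGB, which held 1 to 8 fragments a library, and ERBB4.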
